A study of Mus musculus with 8 samples.

Results

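The genes described here are 9 hepatocyte transcription factors, Hnf4a, Nr5a2, Foxa1, Foxa2, Foxa3, Cebpa, Cebpb, Onecut1 and Prox1, in the livers and tumors of Fah-/- mice. They were chosen by name as liver-enriched DNA-binding proteins, with earlier results of these data known. All 9 were found among the 22504 genes of the expression table, and all 9 passed the filter on low values (4 or more of the 8 samples at an FPKM of 1 or above), which kept 10244 genes.

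Hepatocyte identity rests on a network of liver-enriched factors that bind each other's genes as well as those of albumin, clotting factors, apolipoproteins and metabolic enzymes. The nuclear receptors HNF4A and NR5A2 (LRH-1), the forkhead proteins of the FOXA family, which can open closed chromatin, the leucine zipper proteins C/EBPα and C/EBPβ, the cut-homeodomain protein ONECUT1 (HNF6) and the homeodomain protein PROX1 are its best known parts. C/EBPα is high in the resting adult liver, whereas C/EBPβ is known for the acute phase response and for regeneration.

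The samples were whole tissue from 129S4 mice lacking fumarylacetoacetate hydrolase (FAH), the last enzyme of tyrosine breakdown, so all 8 carried the deletion and none was a healthy control. Such mice stay well on the drug NTBC, given in drinking water at 7.5 mg/L. The group called MCLI8 (samples 1a, 2a and 3a, liver) received 2.5% of that dose for 8 weeks, a moderate chronic liver injury (MCLI). The group called MCLI8 + SALI4 (samples C096, C097 and C098, liver) received the same 8 weeks followed by 4 weeks without NTBC, a severe acute liver injury (SALI) that the study used to induce hepatocyte senescence. The group called MCLI12 (samples 2e and 3e, labelled as tumor) received 2.5% of the dose for 12 weeks. No uninjured liver and no liver outside a tumor after 12 weeks of MCLI was analysed here, so time on low NTBC and tumor tissue cannot be told apart in MCLI12.

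Values are FPKM, fragments counted per length of transcript and per size of the library, so levels can be set side by side between genes. Their depth is unknown, because the table held no counts. The hepatocyte markers summed to 15510 to 32875 FPKM per sample. The labels' extraction text names the retina, but 12 retina markers summed to only 2.10 to 3.73 FPKM and 3 of them were listed at 0 in every sample. Fah was listed at 13.5 to 16.8 FPKM in MCLI8 and MCLI12 and at 5.02 to 6.36 FPKM in MCLI8 + SALI4, and a gene-level value does not check a deletion of part of a gene. Gapdh was at 0.0980 to 0.247 FPKM in MCLI8 and MCLI12 against 68.2 to 99.9 FPKM in MCLI8 + SALI4, so the 3 libraries of MCLI8 + SALI4 stood apart from the other 5, and they were also the only samples of their code series. For every comparison with MCLI8 + SALI4, treatment and library series cannot be told apart.

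The sequence around the start of 7 transcripts of 6 factors is shown for orientation: Hnf4a because it has a pair of separate promoters, and Cebpa, Cebpb, Foxa3, Onecut1 and Prox1 because they passed the test in at least 1 comparison. Each is the RefSeq sequence of GRCm38.p6 from 250 bases before to 50 bases after the annotated start, 5′ to 3′ on the gene's own strand, and capitals mark any of 12 short motifs searched on both strands.
Hnf4a, upstream start, chr2:163506607-163506906, plus strand: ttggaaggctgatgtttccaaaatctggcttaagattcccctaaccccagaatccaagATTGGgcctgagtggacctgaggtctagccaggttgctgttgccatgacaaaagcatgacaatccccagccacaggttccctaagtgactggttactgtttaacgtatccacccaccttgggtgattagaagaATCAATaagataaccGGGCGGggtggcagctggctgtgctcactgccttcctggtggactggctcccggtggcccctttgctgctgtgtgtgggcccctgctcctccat
Hnf4a, downstream start, chr2:163546905-163547204, plus strand: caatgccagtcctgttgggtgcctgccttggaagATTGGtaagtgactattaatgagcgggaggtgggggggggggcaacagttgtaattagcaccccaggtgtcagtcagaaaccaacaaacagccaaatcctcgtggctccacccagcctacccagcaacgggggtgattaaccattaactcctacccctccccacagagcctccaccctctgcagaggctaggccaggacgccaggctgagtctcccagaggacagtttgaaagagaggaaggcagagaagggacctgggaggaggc
Cebpa, chr7:35119043-35119342, plus strand: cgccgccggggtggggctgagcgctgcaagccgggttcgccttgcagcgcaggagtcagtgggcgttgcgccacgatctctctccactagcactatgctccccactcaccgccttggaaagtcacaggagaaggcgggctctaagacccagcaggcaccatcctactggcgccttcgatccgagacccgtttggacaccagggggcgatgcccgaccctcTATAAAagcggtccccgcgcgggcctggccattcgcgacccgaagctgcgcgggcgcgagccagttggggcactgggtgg
Cebpb, chr2:167688665-167688964, plus strand: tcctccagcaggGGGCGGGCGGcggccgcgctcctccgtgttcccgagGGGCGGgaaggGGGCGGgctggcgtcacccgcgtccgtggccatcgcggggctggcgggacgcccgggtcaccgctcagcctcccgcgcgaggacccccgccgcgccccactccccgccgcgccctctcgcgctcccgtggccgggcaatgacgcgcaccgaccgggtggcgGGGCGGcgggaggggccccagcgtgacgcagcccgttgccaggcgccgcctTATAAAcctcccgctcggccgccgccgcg
Foxa3, chr7:19023490-19023789, minus strand: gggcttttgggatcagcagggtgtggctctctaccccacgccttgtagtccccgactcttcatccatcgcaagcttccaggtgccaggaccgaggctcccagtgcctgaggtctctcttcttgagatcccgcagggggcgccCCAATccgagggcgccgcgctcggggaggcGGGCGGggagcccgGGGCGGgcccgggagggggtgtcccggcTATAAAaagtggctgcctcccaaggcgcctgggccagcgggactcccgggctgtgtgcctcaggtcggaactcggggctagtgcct
Onecut1, chr9:74861671-74861970, plus strand: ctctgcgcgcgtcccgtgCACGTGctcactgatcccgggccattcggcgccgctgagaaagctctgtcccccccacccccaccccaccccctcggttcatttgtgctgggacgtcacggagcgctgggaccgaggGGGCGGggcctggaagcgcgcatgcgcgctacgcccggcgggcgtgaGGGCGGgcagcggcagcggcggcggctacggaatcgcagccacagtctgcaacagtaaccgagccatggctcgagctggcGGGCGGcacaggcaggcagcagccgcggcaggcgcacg
Prox1, chr1:190170778-190171077, minus strand: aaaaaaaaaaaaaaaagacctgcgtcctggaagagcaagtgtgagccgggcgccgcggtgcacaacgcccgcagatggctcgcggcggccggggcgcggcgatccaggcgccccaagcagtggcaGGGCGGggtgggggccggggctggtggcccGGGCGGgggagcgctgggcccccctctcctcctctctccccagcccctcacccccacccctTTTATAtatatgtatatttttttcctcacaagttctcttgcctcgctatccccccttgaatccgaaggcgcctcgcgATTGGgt

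The starts of the pair of Hnf4a promoters lie 40298 bases apart, and a gene-level FPKM adds up transcripts from both. RefSeq listed 14 promoters for the 9 factors. The GC box GGGCGG was in 10 of them, against 35.7% of all 32851 promoters of the same length, and the CCAAT box CCAAT in 7, against 37.4%. The TATA box TATAAA was in 6 of 14, against 13.6%, among them the printed Cebpa, Foxa3 and Prox1 sequences shortly before the start and the Cebpb sequence after it. The ONECUT letters ATTGAT were in 2 (7.54% of all), 1 of them the upstream Hnf4a promoter. The E-box CACGTG (7.15%), the forkhead letters TGTTTAC (3.65%) and the C/EBP letters TTGCAAT (2.22%) were in 1 each, in Onecut1, Foxa1 and another Prox1 start. None of the 14 held the cAMP response element TGACGTCA (1.79%), the NR5A2 letters CAAGGTCA (1.56%), the HNF4 letters CAAAGTCCA (0.475%), the palindromic C/EBP letters TTGCGCAA (0.183%) or the palindromic HNF1 site, searched with 1 free base at its centre (0.0609%). No motif contains another, but neighbouring GC boxes overlap in the Cebpb sequence. These matches are a description of letters in a window of 300 bases. The Cebpb promoter had a GC content of 80.7%, against a median of 52.7% over all promoters.

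**Figure D1:**
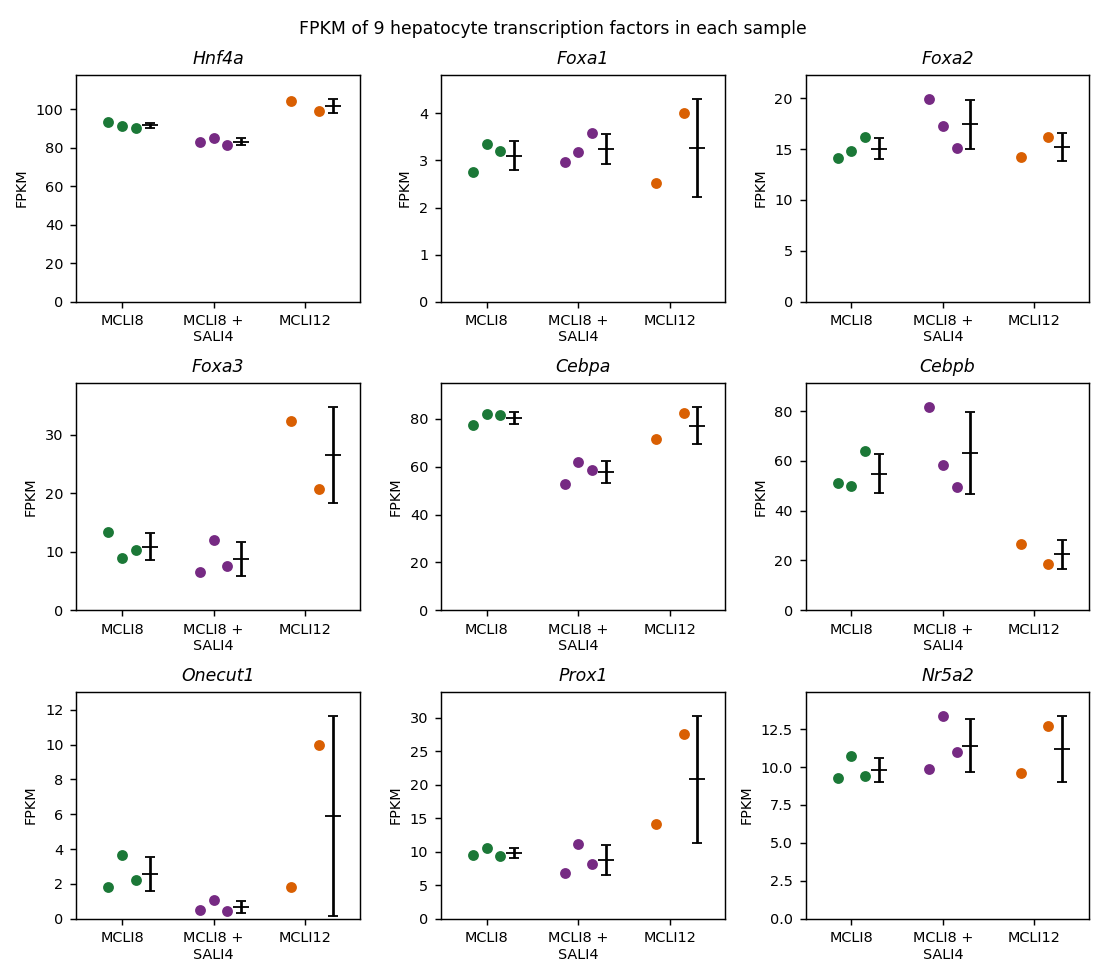
FPKM of each of the 9 factors in every sample (vertical axis, linear, from 0) in the groups MCLI8 (3 samples), MCLI8 + SALI4 (3) and MCLI12 (2). Points are samples, and the bars beside them show the mean ± SD. Hnf4a points lie close together in every group, Foxa3 and Prox1 are highest and Cebpb lowest in both MCLI12 samples, and Onecut1 is low in all MCLI8 + SALI4 samples and high in 1 MCLI12 sample.

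Hnf4a was the highest of the 9 factors in all 3 groups and varied least between samples. This nuclear receptor drives a large share of hepatocyte-specific transcription (ENSMUSG00000017950; GRCm38 chromosome 2, 163506808 to 163572910, plus strand). Its level was 93.2, 91.3 and 90.4 FPKM in 1a, 2a and 3a, 83.1, 85.3 and 81.2 FPKM in C096, C097 and C098, and 104 and 99.2 FPKM in 2e and 3e. The 3 groups did not overlap, with MCLI12 highest and MCLI8 + SALI4 lowest, but the steps between them were small. The mean was 91.6 ± 1.42 FPKM (SD, n = 3) in MCLI8, 83.2 ± 2.02 (n = 3) in MCLI8 + SALI4 and 102 ± 3.66 (n = 2) in MCLI12. None of the 3 differences passed limma's moderated test: the log2 difference was -0.14 for MCLI8 + SALI4 against MCLI8 (adjusted p = 0.306), -0.29 against MCLI12 (adjusted p = 0.0841) and 0.15 for MCLI12 against MCLI8 (adjusted p = 0.360). The 95% interval of the first ran from -0.37 to 0.093, and that of MCLI12 against MCLI8 from -0.11 to 0.41. The difference between MCLI8 + SALI4 and MCLI12 passed after total scaling (-0.47, adjusted p = 0.0219), quantile normalization (-0.50, adjusted p = 0.00815) or without the filter on low values (adjusted p = 0.0304), all by limma. The range of its log2 level within MCLI8 was 0.043, and only 2.85% of the genes kept had a smaller one.

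Here and throughout, the samples are bulk tissue, so fewer cells of a type and less RNA per cell cannot be told apart. The study describes the samples as individual animals, and with 2 or 3 in a group the p-values rest on the spread between these few.

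Nr5a2 encodes the other nuclear receptor of the set, a regulator of bile acid and cholesterol genes (ENSMUSG00000026398; chromosome 1, 136842571 to 136960448, minus strand). It was at 9.30, 10.7 and 9.40 FPKM in MCLI8, 9.90, 13.3 and 11.003 FPKM in MCLI8 + SALI4, and 9.63 and 12.7 FPKM in MCLI12. All 3 groups overlapped. The log2 difference was 0.19 (95% interval -0.14 to 0.52, limma adjusted p = 0.313) between MCLI8 + SALI4 and MCLI8, 0.03 (-0.34 to 0.40, adjusted p = 0.907) between MCLI8 + SALI4 and MCLI12, and 0.16 (-0.20 to 0.53, adjusted p = 0.484) between MCLI12 and MCLI8.

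Of the 3 FOXA genes, only Foxa3 passed a test, and it did so with MCLI12 as the high group. FOXA1 and FOXA2 act early in liver specification, and FOXA3 acts in glucose homeostasis. Foxa3 (ENSMUSG00000040891; chromosome 7, 19013284 to 19023538, minus strand) was at 13.4, 8.91 and 10.3 FPKM in MCLI8, 6.46, 12.0 and 7.58 FPKM in MCLI8 + SALI4, and 32.3 and 20.8 FPKM in 2e and 3e. Both MCLI12 samples lay above all others, while the other groups overlapped. The mean was 10.8 ± 2.28 FPKM (SD, n = 3) in MCLI8, 8.67 ± 2.91 (n = 3) in MCLI8 + SALI4 and 26.5 ± 8.15 (n = 2) in MCLI12. Foxa3 rose in MCLI12 against MCLI8 by 1.20 on the log2 scale (SE 0.28, limma adjusted p = 0.0217). It was lower in MCLI8 + SALI4 than in MCLI12 by a log2 difference of -1.52 (SE 0.28, limma adjusted p = 0.00421). The difference between MCLI8 + SALI4 and MCLI8 was -0.32 (95% interval -0.88 to 0.25, limma adjusted p = 0.335). The call against MCLI8 was lost without 2e (log2 difference 0.89, limma adjusted p = 0.0524), without 2a (1.08, adjusted p = 0.0693), without 3a (1.17, adjusted p = 0.0714) and without the filter on low values (adjusted p = 0.0502). Proliferation markers were high in MCLI12, with a sum of 47.2 FPKM in 2e and 63.1 FPKM in 3e, the reverse of the Foxa3 order. In MCLI8 their sum was 3.69 to 4.87 FPKM and in MCLI8 + SALI4 2.52 to 5.78 FPKM. Only 1 of these 10 markers was kept, and the part of cycling cells in the Foxa3 level was not tested. In MCLI12 against MCLI8, 5 of 9 endothelial markers kept were lower (median log2 difference -0.57) and 3 of 6 bile duct markers kept were higher (median 1.17), and their part was not tested either.

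Foxa2 (ENSMUSG00000037025; chromosome 2, 148042877 to 148046969, minus strand) was at 14.1, 14.8 and 16.2 FPKM in MCLI8, 19.9, 17.3 and 15.1 FPKM in MCLI8 + SALI4, and 14.2 and 16.2 FPKM in MCLI12. The groups overlapped, and no comparison passed (limma adjusted p from 0.244 to 0.949). Foxa1 (ENSMUSG00000035451; chromosome 12, 57540628 to 57546916, minus strand) was the low member of the family, at 2.75, 3.35 and 3.20 FPKM in MCLI8, 2.97, 3.18 and 3.59 FPKM in MCLI8 + SALI4, and 2.52 and 4.00 FPKM in MCLI12. The MCLI12 samples were the lowest and the highest of all 8, and no comparison passed (limma adjusted p from 0.804 to 0.957). For Foxa1 the 95% interval of the difference between MCLI8 + SALI4 and MCLI8 ran from -0.29 to 0.39 on the log2 scale, and for Foxa2 from -0.091 to 0.48.

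The C/EBP genes differed in which group stood apart. Cebpa (ENSMUSG00000034957; chromosome 7, 35119293 to 35121928, plus strand) was at 77.6, 82.0 and 81.5 FPKM in MCLI8, 52.7, 62.0 and 58.6 FPKM in MCLI8 + SALI4, and 71.7 and 82.6 FPKM in MCLI12. All 3 MCLI8 + SALI4 samples lay below the other 5, and the MCLI12 samples spanned those of MCLI8. The mean was 80.4 ± 2.42 FPKM (SD, n = 3) in MCLI8, 57.7 ± 4.69 (n = 3) in MCLI8 + SALI4 and 77.1 ± 7.70 (n = 2) in MCLI12. Cebpa fell in MCLI8 + SALI4 against MCLI8 by 0.47 on the log2 scale (SE 0.12, limma adjusted p = 0.0127). It was lower by 0.41 against MCLI12 (log2 difference -0.41, SE 0.13, limma adjusted p = 0.0399). The first call was lost without 2a (-0.46, limma adjusted p = 0.0509). Markers of other kinds moved with the fall against MCLI8: of 11 hepatocyte markers 5 were lower and 1 was higher (median log2 difference -0.83), and of 9 endothelial markers kept 5 were lower and 1 was higher (median -0.69). The 10 endothelial markers found summed to 73.0 to 78.4 FPKM in MCLI8, 35.9 to 58.0 FPKM in MCLI8 + SALI4 and 36.9 to 44.6 FPKM in MCLI12, and none of either list was listed at 0 in a whole group. Against MCLI12, 6 of the 11 hepatocyte markers were lower and 0 higher (median -0.75). Their part in the Cebpa level was not tested. The Cebpa call against MCLI12 was lost when only both of those groups were fitted (adjusted p = 0.127) and in 6 of the 8 fits that left out a sample, without 2e and without C097 excepted. MCLI12 and MCLI8 differed by -0.061 (95% interval -0.36 to 0.23, limma adjusted p = 0.753).

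Cebpb, whose single exon lies on chromosome 2 (ENSMUSG00000056501; 167688915 to 167690418, plus strand), was low in MCLI12. It was at 51.1, 49.7 and 63.9 FPKM in MCLI8, 81.5, 58.5 and 49.6 FPKM in MCLI8 + SALI4, and 26.7 and 18.4 FPKM in 2e and 3e. Both MCLI12 samples lay well below the other 6, which overlapped each other. The mean was 54.9 ± 7.81 FPKM (SD, n = 3) in MCLI8, 63.2 ± 16.5 (n = 3) in MCLI8 + SALI4 and 22.5 ± 5.83 (n = 2) in MCLI12. Cebpb fell in MCLI12 against MCLI8 by 1.26 on the log2 scale (SE 0.24, limma adjusted p = 0.0112). It was higher in MCLI8 + SALI4 than in MCLI12 by 1.44 (SE 0.24, limma adjusted p = 0.00270), a call kept in all 17 alternatives of that comparison. MCLI8 + SALI4 and MCLI8 differed by 0.18 (95% interval -0.31 to 0.66, limma adjusted p = 0.531), a difference that rested on C096 and was -0.018 without it. With a replicate block the fall in MCLI12 no longer passed (log2 difference -1.31, limma adjusted p = 0.0632). Only the numbers 2 and 3 are shared, so 1a did not enter this difference. The block called 252 of all genes, against 1962 in the main fit. Whether pairing or the fewer samples cost the call was not tested.

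Several values lay beside the Cebpb result. Of the 50-base windows of its annotated transcript, 18.1% also occur in another gene, Tmem189 on the opposite strand, which was at 1.94 to 8.51 FPKM. The library kit does not mark strand. C/EBPβ is also made by macrophages, whose 10 markers summed to 171 to 213 FPKM in MCLI8, 167 to 489 FPKM in MCLI8 + SALI4 and 165 to 201 FPKM in MCLI12. None of the 9 macrophage markers kept passed the test between MCLI12 and MCLI8. In MCLI8 + SALI4 against MCLI12, 1 of the 9 was higher, Cd14 (log2 difference 1.69, limma adjusted p = 0.00244), with a median of 0.39 beside 0.0077 over all genes. Other marker lists did move in MCLI12 against MCLI8: proliferation markers summed to 47.2 and 63.1 FPKM in MCLI12 against 3.69 to 4.87 FPKM in MCLI8, 5 of 9 endothelial markers were lower (median log2 difference -0.57) and 3 of 6 bile duct markers were higher (median 1.17). Their part in the Cebpb level was not tested. The highest macrophage sum was in C097 and the highest Cebpb in C096, which also had Ddit3, a stress-induced C/EBP relative, at 102 FPKM against 13.8 and 16.5 FPKM in C097 and C098. Ddit3 was next highest in 2e, at 35.8 FPKM, where Cebpb was low. Ddit3 was picked out after its values were seen.

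Onecut1 was the lowest factor in MCLI8 and MCLI8 + SALI4 and the most uneven in MCLI12. ONECUT1 acts in bile duct and hepatocyte development (ENSMUSG00000043013; chromosome 9, 74861921 to 74891781, plus strand). Its level was 1.82, 3.68 and 2.19 FPKM in MCLI8, 0.491, 1.06 and 0.439 FPKM in MCLI8 + SALI4, 1.83 FPKM in 2e and 9.96 FPKM in 3e. All 3 MCLI8 + SALI4 samples lay below the other 5, and 3e lay far above 2e. The log2 difference between 3e and 2e was 1.95, larger than that of 98.6% of the genes kept. Onecut1 was lower in MCLI8 + SALI4 than in MCLI12 by a log2 difference of -1.76 (SE 0.49, limma adjusted p = 0.0258), which was -0.79 without 3e (adjusted p = 0.0790) and also missed the threshold without C096 (adjusted p = 0.0677) or C098 (adjusted p = 0.0736), without the filter on low values (adjusted p = 0.0631) and when only both groups were fitted (adjusted p = 0.0660). Against MCLI8 the difference was -1.09 (SE 0.44, limma adjusted p = 0.0812). It passed without 2e (adjusted p = 0.00352) or without 3e (adjusted p = 0.00361), when only both groups were fitted (adjusted p = 0.00364), with a pseudocount of 0.1 (-1.83, adjusted p = 0.0363) and with a pseudocount of 0.01 (-1.99, adjusted p = 0.0320), all by limma. At levels this low the log2(FPKM + 1) scale understates the change. MCLI12 against MCLI8 gave 0.68 (SE 0.49, limma adjusted p = 0.341), which was -0.30 without 3e and 1.66 (adjusted p = 0.00466) without 2e.

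The bile duct markers moved with Onecut1 in MCLI12. Their sum was 34.2 FPKM in 2e and 356 FPKM in 3e, against 14.2 to 20.6 FPKM in MCLI8 and 32.8 to 40.3 FPKM in MCLI8 + SALI4. Sox9, a transcription factor of duct cells, was at 19.9 FPKM in 3e and 3.61 FPKM in 2e, and was picked out here after its values were seen. The part of duct-like cells in the Onecut1 level was not tested. In MCLI8 + SALI4 the duct sum was above that of MCLI8 while Onecut1 lay below. Of the Onecut1 transcript windows, 52.3% also occur in another gene, for the most part Gm20649, a long noncoding RNA on the same strand. Gm20649 is not among the genes listed, so how reads from the shared windows were assigned is unknown. Their part in the Onecut1 level was not tested.

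Prox1, which acts in hepatocyte and lymphatic vessel development (ENSMUSG00000010175; chromosome 1, 190118035 to 190170714, minus strand), was high in MCLI12. It was at 9.52, 10.6 and 9.31 FPKM in MCLI8, 6.83, 11.2 and 8.16 FPKM in MCLI8 + SALI4, 14.1 FPKM in 2e and 27.5 FPKM in 3e. Both MCLI12 samples lay above the other 6, and 3e lay well above 2e. The mean was 9.81 ± 0.690 FPKM (SD, n = 3) in MCLI8, 8.73 ± 2.25 (n = 3) in MCLI8 + SALI4 and 20.8 ± 9.46 (n = 2) in MCLI12. Prox1 rose in MCLI12 against MCLI8 by 0.95 on the log2 scale (SE 0.27, limma adjusted p = 0.0426). It was lower in MCLI8 + SALI4 than in MCLI12 by a log2 difference of -1.12 (SE 0.27, limma adjusted p = 0.0142). Without 3e these became 0.49 (limma adjusted p = 0.187) and -0.66 (adjusted p = 0.0585), and the first call was lost in 10 of 19 alternatives, with the replicate block (adjusted p = 0.167) among them. The second was also lost when only both of those groups were fitted (-1.12, limma adjusted p = 0.0531). MCLI8 + SALI4 and MCLI8 differed by -0.17 (95% interval -0.73 to 0.38, limma adjusted p = 0.593). Lymphatic endothelial markers, which share cells with Prox1 outside the hepatocyte, summed to 13.0 to 15.1 FPKM in MCLI8, 12.7 to 25.2 FPKM in MCLI8 + SALI4 and 12.6 to 14.8 FPKM in MCLI12. Of these 7 markers 3 were kept. Lyve1 among them is also on the list of endothelial markers, so the sum is not specific to lymphatic cells. Proliferation markers (47.2 FPKM in 2e and 63.1 FPKM in 3e, against 3.69 to 4.87 FPKM in MCLI8) and bile duct markers (34.2 FPKM in 2e and 356 FPKM in 3e, against 14.2 to 20.6 FPKM) moved with Prox1, and their part in its level was not tested.

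Counted together, few of the 9 factors passed in the step to severe injury. In MCLI8 + SALI4 against MCLI8, 1 of 9 was lower and 0 were higher, where 39.4% of all genes tested passed (14.1% lower and 25.3% higher). The median log2 difference was -0.14 over the 9 and 0.12 over all genes. In MCLI8 + SALI4 against MCLI12, 1 was higher and 4 were lower, where 32.8% of all genes passed (17.4% higher and 15.4% lower), with a median of -0.29 over the 9 and 0.01 over all genes. In MCLI12 against MCLI8, 2 were higher and 1 was lower, where 19.2% of all genes passed (12.2% higher and 6.98% lower), with medians of 0.15 and 0.12. A moderated F test of limma across the 3 groups passed for 5 of the 9 (Cebpb, Foxa3, Cebpa, Prox1 and Onecut1), where 49.7% of all genes passed. The comparisons share samples, so these counts are not independent of each other.

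**Figure D2:**
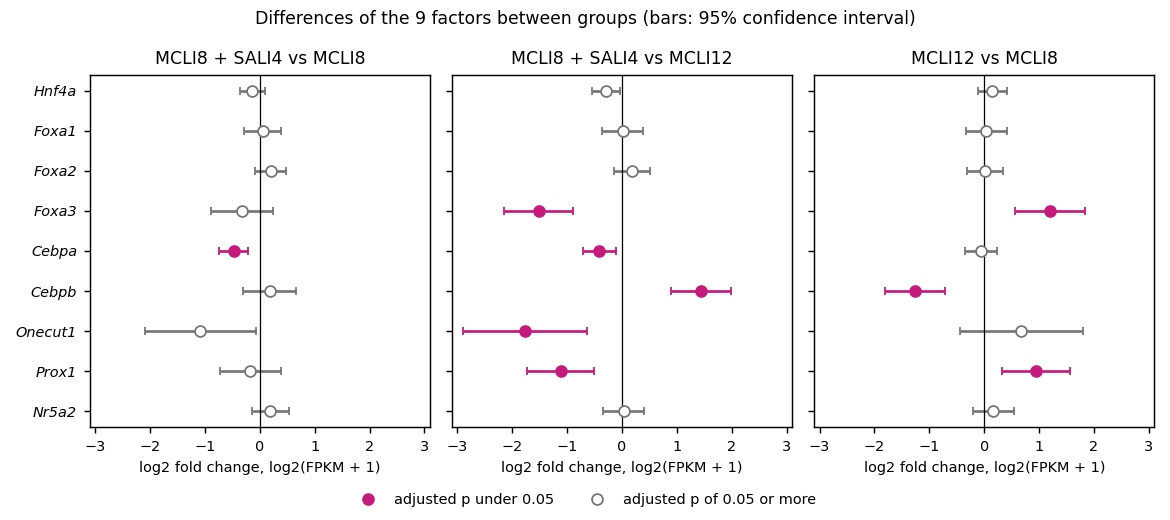
Log2 differences of the 9 factors on the log2(FPKM + 1) scale in the 3 comparisons, with 95% intervals from limma. Filled points passed an adjusted p of 0.05. Cebpa alone passed in MCLI8 + SALI4 against MCLI8, 5 factors passed against MCLI12, and Foxa3, Prox1 and Cebpb passed in MCLI12 against MCLI8.

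The order of the levels, which FPKM allows because it is per length, began with Hnf4a in every group. In MCLI8 the order of the means was Hnf4a, Cebpa, Cebpb, Foxa2, Foxa3, Prox1, Nr5a2, Foxa1 and Onecut1, where Foxa3, Prox1 and Nr5a2 overlapped as neighbours, as did Foxa1 and Onecut1. In MCLI8 + SALI4 Cebpb came ahead of Cebpa, but Hnf4a, Cebpb and Cebpa overlapped as neighbours there. They were followed by Foxa2, by the overlapping Nr5a2, Prox1 and Foxa3, and then by Foxa1 and Onecut1. In MCLI12 Hnf4a and Cebpa led, Foxa3, Cebpb, Prox1 and Foxa2 overlapped in the middle, and Nr5a2, Onecut1 and Foxa1 overlapped at the bottom. By mean FPKM over the 8 samples, Hnf4a lay above 94.4% of the genes kept, Cebpa above 92.8% and Cebpb above 89.8%, whereas Foxa1 lay above 26.4% and Onecut1 above 21.4%.

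Ratios within a sample do not change when all its genes are scaled by the same factor. Quantile normalization is not such a scaling and can change them, and the ratios here are of FPKM as deposited. The pairs were chosen after the values had been seen. The ratio of Cebpb to Cebpa was 0.659, 0.606 and 0.784 in MCLI8, 1.55, 0.944 and 0.846 in MCLI8 + SALI4, and 0.372 and 0.223 in MCLI12. No group overlapped another, with MCLI8 + SALI4 highest and MCLI12 lowest. Two-sided exact permutation tests gave p = 0.1 for MCLI8 + SALI4 against MCLI8 and p = 0.2 for each comparison with MCLI12, in each case the smallest that 3 against 3 or 3 against 2 samples allow. The ratio of Foxa3 to Foxa2 was 0.945, 0.600 and 0.636 in MCLI8, 0.324, 0.692 and 0.501 in MCLI8 + SALI4, and 2.27 and 1.28 in MCLI12, where it lay above all other samples (exact permutation p = 0.2 for each comparison with MCLI12, the smallest possible). The ratio of Prox1 to Hnf4a was 0.102 to 0.116 in MCLI8, 0.0822 to 0.131 in MCLI8 + SALI4, and 0.136 and 0.278 in MCLI12. The ratio of Foxa1 to Foxa2 overlapped between all groups, at 0.149 to 0.247 over the 8 samples. With 12 such comparisons, no p could pass after correction.

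**Figure D3:**
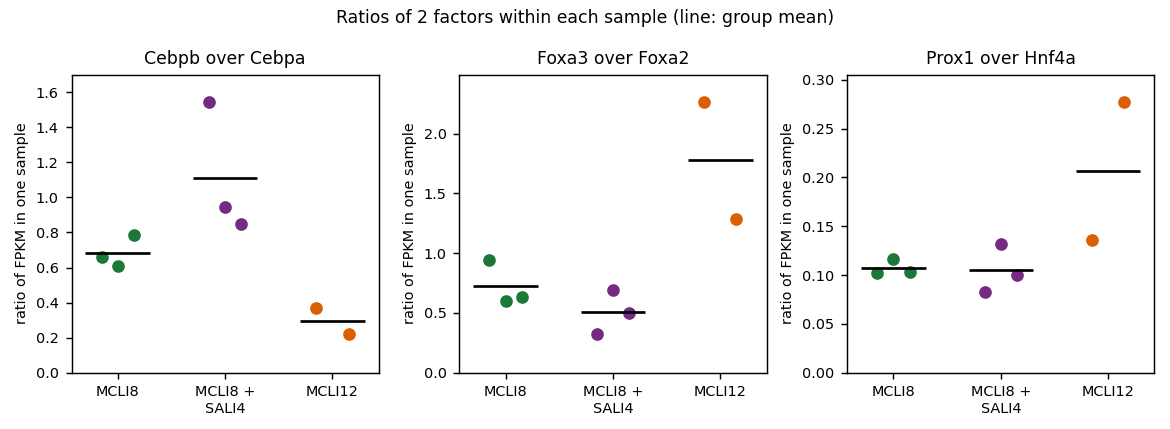
Ratios of FPKM between pairs of factors within each sample (vertical axis, linear, from 0), by group. Cebpb over Cebpa is highest in MCLI8 + SALI4 (0.846 to 1.55) and lowest in MCLI12 (0.223 and 0.372), and Foxa3 over Foxa2 is highest in MCLI12 (1.28 and 2.27).

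Of 9 genes found from a list of the factors' relatives, which also held the CCAAT-binding protein Cebpz, 4 were kept, and 1 of the 4 (25%) passed in each comparison, beside 39.4%, 32.8% and 19.2% of all genes. In MCLI8 + SALI4 against MCLI8, Cebpz, which is outside the leucine zipper family of the C/EBP factors, rose by 0.46 on the log2 scale (limma adjusted p = 0.0218) and the other 3 did not pass. The Cebpz call was lost without 1a, 3a or C097 and after total scaling or quantile normalization. Cebpg, a partner of other C/EBP proteins, was at 11.3 to 12.2 FPKM in MCLI8, 12.0 to 14.2 FPKM in MCLI8 + SALI4, and 16.8 and 24.2 FPKM in MCLI12. It rose in MCLI12 against MCLI8 by 0.74 (limma adjusted p = 0.0174) and was lower in MCLI8 + SALI4 than in MCLI12 by a log2 difference of -0.62 (adjusted p = 0.0179). Both Cebpg calls were lost without 3e, the first also without 1a or 3a and with the replicate block, and the other also without C098 and when only both groups were fitted. Cebpd is not analysed here.

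Among 27 other liver-enriched factors kept, 1 rose and 6 fell in MCLI8 + SALI4 against MCLI8, with a median log2 difference of -0.14 against 0.12 over all genes. The shares called were 25.9%, 33.3% and 29.6% in MCLI8 + SALI4 against MCLI8, MCLI8 + SALI4 against MCLI12 and MCLI12 against MCLI8, beside 39.4%, 32.8% and 19.2% of all genes. Atf5, a stress-linked leucine zipper protein, was the riser (0.67, limma adjusted p = 0.0217), while 0 rose without 1a, 2a, C096 or C098 or after median-ratio scaling. Klf15, a regulator of amino acid and glucose metabolism, had the largest fall (-0.79, adjusted p = 0.00415), from 46.9, 49.2 and 49.9 FPKM to 33.8, 22.7 and 27.8 FPKM, followed by Hlf, a circadian leucine zipper protein (-0.60, adjusted p = 0.0234). Without 2a the falls numbered 3, and after quantile normalization 11. Against MCLI12, 1 was higher and 8 were lower in MCLI8 + SALI4: Tef, a relative of Hlf, by 0.99 (adjusted p = 0.00122), and, with the largest fall, Nfil3 (-0.92, adjusted p = 0.0241). In MCLI12 against MCLI8, 4 rose and 4 fell. Atf5 was among those that rose (0.71, adjusted p = 0.0449). Tef (-0.75, adjusted p = 0.0103) and Klf15 (-0.71, adjusted p = 0.0239) fell most. All of these adjusted p-values are from limma. In MCLI8 + SALI4 against MCLI8, 5 of 11 hepatocyte and 5 of 9 endothelial markers kept were lower, with 1 of each higher. In MCLI12 against MCLI8, 5 of 9 endothelial markers were lower and 3 of 6 bile duct markers were higher. Proliferation markers summed to 47.2 to 63.1 FPKM in MCLI12, against 3.69 to 4.87 FPKM in MCLI8. The part of these markers in the factor counts was not tested. The 8 factors lower against MCLI12 became 5 without C098 and 3 when only both groups were fitted. The factors of this list that rose in MCLI12 numbered 1 without 3a and 1 with the replicate block. Those fits called 718 and 252 of all genes, against 1962 in the main fit. The falls there numbered 1 to 4 with 1 sample left out, the lowest without 2a or 3a, 2 when only both groups were fitted and 0 with the replicate block.

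Liver nuclear receptors other than the 2 factors numbered 22 kept, of which 4 rose and 9 fell in MCLI8 + SALI4 against MCLI8. Their median log2 difference was -0.43, against 0.12 over all genes. The shares called were 59.1%, 27.3% and 13.6% in MCLI8 + SALI4 against MCLI8, MCLI8 + SALI4 against MCLI12 and MCLI12 against MCLI8. Of all genes, 39.4%, 32.8% and 19.2% were called in that order. In the first of these, 5 of 11 hepatocyte markers (median -0.83) and 5 of 9 endothelial markers (median -0.69) were lower, with 1 of each higher. Their part in the receptor counts was not tested. Nr1i3, the constitutive androstane receptor, fell by 1.31 (limma adjusted p = 0.000193), from 33.0, 25.1 and 27.1 FPKM to 10.3, 11.1 and 10.9 FPKM. Of its transcript windows, 63.6% also occur in the neighbouring Tomm40l. Nr1h3, the oxysterol receptor LXRα, fell by 0.97 (adjusted p = 0.0146). Vdr, the vitamin D receptor, rose by 0.61 (adjusted p = 0.0194) and Ppard by 0.53 (adjusted p = 0.0114). With 1 sample left out the rises numbered 0 (without 1a) to 4, and after the 3 other scalings 1 to 3, and the falls 4 (without 1a, C096 or C098) to 12. In MCLI12 against MCLI8, 1 rose and 2 fell: Rora with a log2 difference of 0.79 (adjusted p = 0.0198), Nr1i3 with -1.95 (adjusted p = 0.000642) and Nr1h2 with -0.47 (adjusted p = 0.0293). Without 2e the falls there numbered 7 and without 1a, 2a or 3a 1, and without 1a, 3a or 3e or with the replicate block the rises numbered 0. Between MCLI8 + SALI4 and MCLI12, 3 were higher and 3 were lower. Vdr (1.18, adjusted p = 0.00204) and Ppard (0.66, adjusted p = 0.00838) had the largest rises and Thra (-0.68, adjusted p = 0.0102) and Nr3c1, the glucocorticoid receptor, (-0.58, adjusted p = 0.0271) the largest falls. These values are from limma too. Without 2e, 5 were higher and 6 were lower, and 0 were lower when only both groups were fitted.

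Textbook target genes of the factors are given beside the factors, as counts. Of 31 HNF4A targets kept, 21 fell, 1 rose and 9 did not pass in MCLI8 + SALI4 against MCLI8, with a median log2 difference of -1.08 against 0.12 over all genes and -0.14 for Hnf4a itself. Ugt2b1, a glucuronosyltransferase, was at 223, 219 and 154 FPKM in MCLI8 and at 12.3, 30.2 and 29.8 FPKM in MCLI8 + SALI4, a log2 difference of -3.08 (limma adjusted p = 0.000224). Cyp7a1, the rate-limiting enzyme of bile acid synthesis, was at 35.3, 20.8 and 18.1 FPKM against 0.835, 3.47 and 2.27 FPKM (-3.05, adjusted p = 0.00209). Apoa1, the main protein of high-density lipoprotein, rose by 1.04 (limma adjusted p = 0.0107), and without 2a no target on this list rose. In the alternatives the falls numbered 17 (without 1a) to 25. Leaving out targets with over 2% of windows shared with another gene gave 16 falls, 1 rise and 6 not passing of 23.

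Hepatocyte markers are given beside these counts: of the 11 hepatocyte markers kept, 5 fell and 1 rose, with a median of -0.83. The part of hepatocyte content in the target counts was not tested. Some genes stand on several target lists, and some hepatocyte markers are targets too. Apoa1 is the riser among both the hepatocyte markers and the HNF4A targets, and Cps1 is both a hepatocyte marker and a C/EBP target. The counts of targets and of hepatocyte markers are therefore not independent.

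The targets of the other factors were counted in the same way in MCLI8 + SALI4 against MCLI8. Of 20 C/EBP targets kept, 8 fell and 3 rose (median -1.01). Crp, C-reactive protein, fell by 3.05 (limma adjusted p = 5.25e-05), Saa1, serum amyloid A, of which 31.5% of windows are shared with other genes, fell by 2.29 (adjusted p = 0.0183), Lcn2, lipocalin 2, rose by 1.86 (adjusted p = 0.000496) and Ass1, a urea cycle enzyme of which 38.6% of windows are shared with other genes, rose by 4.28 (adjusted p = 0.000380). Of 19 FOXA targets kept, 8 fell and 2 rose (median -0.89), and of 15 NR5A2 targets 6 fell and 2 rose (median -0.94). The largest called changes there included Cyp2c50, with 18.3% of windows shared, at -3.05 and Ces1d, a carboxylesterase, at -2.54. Afp, alpha-fetoprotein, which is on several lists, went from 19.3, 15.4 and 37.6 FPKM in MCLI8 to 1533, 1147 and 1278 FPKM in MCLI8 + SALI4, and was at 391 and 177 FPKM in MCLI12. When only both groups were fitted the falls were 14 for C/EBP, 13 for FOXA and 11 for NR5A2 targets, beside 25 for HNF4A targets. Without 1a the falls were 6 for C/EBP, 6 for FOXA and 4 for NR5A2 targets. Rises numbered 1 (without 2a) to 4 for FOXA targets and 1 (without 2a) to 2 for NR5A2 targets with 1 sample left out. The shares called were 71.0% for HNF4A, 55.0% for C/EBP, 52.6% for FOXA and 53.3% for NR5A2 targets, beside 39.4% of all genes. Differences between the lists were not tested.

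Between MCLI8 + SALI4 and MCLI12 the same lists gave 15 lower and 2 higher of 31 HNF4A targets (median -0.81), 7 lower and 1 higher of 20 C/EBP targets, 7 lower and 1 higher of 19 FOXA targets and 3 lower and 1 higher of 15 NR5A2 targets. F7, clotting factor VII, was at 1.29, 1.54 and 1.31 FPKM in MCLI8 + SALI4 and at 25.7 and 14.3 FPKM in MCLI12 (-3.09, limma adjusted p = 3.21e-05). The HNF4A count of lower genes was 8 when only both groups were fitted and 9 without C098, and that of higher genes was 1 (without 3e, C097 or C098) to 5 (without 2e). Lower C/EBP targets numbered 4 without C097 and 11 without 3e, lower FOXA targets 3 to 8, the lowest without C097, and lower NR5A2 targets 6 without 3e. When only both groups were fitted, lower C/EBP and FOXA targets numbered 3 each and lower NR5A2 targets 2. Of 11 hepatocyte markers kept, 6 were lower and 0 higher in the same comparison (median -0.75), and their part in the target counts was not tested. Without 2e, 3 were higher in each of the C/EBP, FOXA and NR5A2 lists. The shares called were 54.8%, 40.0%, 42.1% and 26.7% in the order of the lists, beside 32.8% of all genes.

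In MCLI12 against MCLI8, 8 of 31 HNF4A targets fell and 2 rose (median -0.19), with 2 of 20 C/EBP targets falling and 2 rising, 3 and 4 of 19 for FOXA, and 2 and 2 of 15 for NR5A2. Cyp27a1, a bile acid enzyme among the HNF4A targets, was at 166, 149.7 and 148 FPKM in MCLI8 and at 72.8 and 35.7 FPKM in MCLI12, a log2 difference of -1.58 (limma adjusted p = 0.00729). Apob rose by 0.88 (adjusted p = 0.0329), but no HNF4A target rose without 1a, 2a or 3a, when only both groups were fitted or with the replicate block. Orm2, an acute phase protein listed with the C/EBP targets, had a log2 difference of -1.94 in MCLI12 (adjusted p = 0.00457) and of -2.08 in MCLI8 + SALI4 against MCLI8 (adjusted p = 0.000434), where that of Cebpb was 0.18. Of its windows, 22.7% are shared with other genes. Lcn2 on the same list rose by 1.44 (adjusted p = 0.00931). The HNF4A falls numbered 3 without 1a, 4 without 2a, 5 without 3a and 1 with the replicate block. Without 2e the falls were 11 for HNF4A, 7 for C/EBP and 5 for NR5A2 targets, and without 3e the rises were 7 for C/EBP and 6 for NR5A2 targets. The shares called were 32.3%, 20%, 36.8% and 26.7% for HNF4A, C/EBP, FOXA and NR5A2 targets, beside 19.2% of all genes. Of 11 hepatocyte markers, 0 were lower and 1 was higher in this comparison (median 0.17), namely Apob. Of markers kept, 5 of 9 endothelial were lower (median -0.57) and 3 of 6 bile duct were higher (median 1.17). Proliferation markers summed to 47.2 to 63.1 FPKM in MCLI12, against 3.69 to 4.87 FPKM in MCLI8. The part of these markers in the target counts was not tested. FOXA rises numbered 1 without 3a, and FOXA falls 1 without any 1 of the MCLI8 samples. Without 1a or without 2a, C/EBP targets gave 1 fall and 1 rise, and so did NR5A2 targets. With the replicate block the falls and rises were 1 and 0 for C/EBP, 2 and 2 for FOXA, and 0 and 1 for NR5A2 targets.

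Fetal and progenitor genes that HNF4A is known to hold down in the adult formed the last list. Of 13 kept, 5 rose and 1 fell in MCLI8 + SALI4 against MCLI8 (median 0.89), 6 rose and 0 fell in MCLI12 against MCLI8 (median 1.07), and 2 were higher and 2 lower between MCLI8 + SALI4 and MCLI12. The shares called were 46.2%, 46.2% and 30.8% in that order, beside 39.4%, 19.2% and 32.8% of all genes. Besides Afp, the rises included Cd24a in MCLI8 + SALI4 (3.33, limma adjusted p = 0.000457) and Sox9 in MCLI12 (2.44, adjusted p = 0.0173). Snai2, a repressor of epithelial genes, fell in MCLI8 + SALI4 (-0.46, adjusted p = 0.0173), a call lost without 1a or 2a. Epcam (1.42, adjusted p = 0.0471) and Sox9, which rose in MCLI12, are also bile duct markers, of which 3 of the 6 kept were higher there. Epcam was also among the rises in MCLI8 + SALI4 (1.83, adjusted p = 0.00577). The duct markers summed to 34.2 and 356 FPKM in MCLI12 and to 32.8 to 40.3 FPKM in MCLI8 + SALI4, against 14.2 to 20.6 FPKM in MCLI8, and their part in the progenitor counts was not tested. The count of 5 in MCLI8 + SALI4 was 8 without 2e, without 3e or when only both groups were fitted. The count of 6 in MCLI12 was 3 without 1a, 3 with the replicate block and 1 with crossed numbers in a replicate block. Between MCLI8 + SALI4 and MCLI12, 4 were higher without 3e and 4 were lower without 2e.

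**Figure D4:**
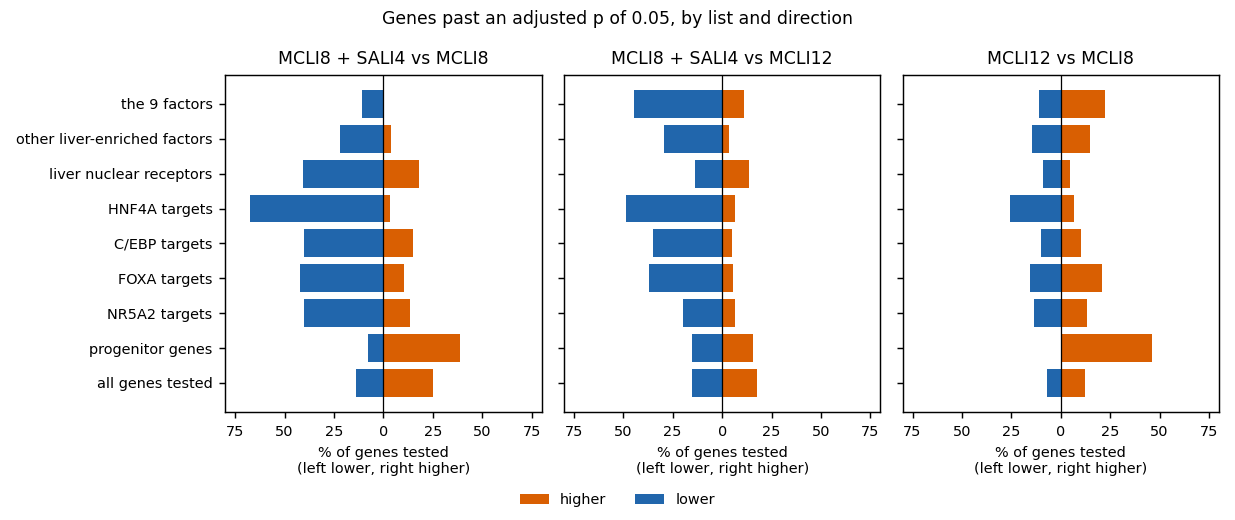
Share of the genes tested in each list (horizontal axis, percent) that passed an adjusted p of 0.05, to the right for higher and to the left for lower, in the 3 comparisons. HNF4A targets have the longest bar to the left in MCLI8 + SALI4 against MCLI8 (21 of 31), while 1 of the 9 factors lies there, and progenitor genes lie to the right in MCLI12 against MCLI8 (6 of 13).

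The genes whose levels ran most like a factor over the 8 samples were found by the root mean square difference of centred log2(FPKM + 1) values. Nearest to Foxa3 were Cenpa (0.15), Cdhr5 (0.19) and Acsl5 (0.20), where the values of Foxa3 themselves had a root mean square of 0.67. Nearest to Prox1 were Alcam (0.12), Ccdc50 (0.12) and E2f1 (0.12), against 0.53. Nearest to Cebpb were Ndufa5 (0.16), Tpd52l1 (0.17) and Glrx5 (0.17), against 0.64, and to Cebpa Chtf8, Trappc9 and Zfp787 (each 0.05), against 0.23. Onecut1 had no close match, with Slc30a10 (0.30), Pcna-ps2 (0.32) and Svil (0.35) against 0.89. For the factors that varied little, nearness says little, since any flat gene is near: Ice2, Zfp825 and Aplf for Hnf4a, Slc7a6os, Zfp593 and Grk2 for Foxa2, Dock9, Cyth3 and Shroom2 for Foxa1, and Erc1, Herc4 and Katnal1 for Nr5a2.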

How the data were processed

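RNA of 8 samples of Fah-/- mice was sequenced with the TruSeq RNA kit, which does not mark strand. The authors deposited 1 table of FPKM values per gene with Ensembl identifiers. The submitters' processing notes name Bowtie 0.12.2 and the build mm8. The program that made the FPKM values is not given in the sources used here. No column of another sample was in the table. Symbols were matched by identifier for 22314 of 22504 genes.

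From the deposited FPKM, log2(FPKM + 1) values were computed for the 10244 genes whose FPKM reached 1 in 4 or more samples. One limma fit (version 3.58.1 in R 4.3.3, empirical Bayes with a trend) covered the 3 groups, with Benjamini-Hochberg adjustment over all genes kept and a threshold of 0.05. The fit was tested on simulated data. Groups came from the treatment label. Whole reads could not be recovered from the values, so depth is unknown and no count test was run.

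Gene positions are from GENCODE M21 on GRCm38 and promoters from RefSeq GRCm38.p6, matched by name for all 9 factors, not on the authors' build. Shared sequence is the share of 50-base windows of a gene's transcripts found in another gene on either strand. Protein sequences were not used here.

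The factors and gene lists were chosen with earlier results of these data known. All 9 factors were named; of each list, the 2 largest rises and 2 largest falls among called genes were eligible to be named, the transcription factor lists first, and for each factor the 3 nearest genes. Some genes that this rule allows are not reported here. A few others are marked as chosen after their values were seen or stand as cell type markers. Alternatives were pseudocounts of 0.1 and 0.01, other filters, 3 other scalings, a fit with no trend, a 2-group fit, a fold limit, each sample left out and a replicate block. The block with crossed numbers, the list counts without shared genes and the list counts under each alternative were added after the data were seen. A list count under an alternative also depends on how many of all genes that fit called, so it does not describe the list alone.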

Additional observations from a re-analysis of the deposited data

How the results depend on the processing

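Over the 3 comparisons, 406 values of single factors under an alternative kept their direction and side of the threshold, 32 fell short of it, 9 newly passed it and 30 changed sign, the last all among differences that did not pass. The calls of Foxa3 and Cebpb between MCLI8 + SALI4 and MCLI12 passed under all 17 alternatives. The numbers of genes passing in MCLI8 + SALI4 against MCLI8, MCLI8 + SALI4 against MCLI12 and MCLI12 against MCLI8 were 4034, 3356 and 1962. Requiring a log2 fold change of at least 1 gave 1128, 1177 and 533 genes in that order. Of the 9 factors, 0, 4 and 2 then passed. In the first comparison 2 factors passed with a pseudocount of 0.1, with 0.01 or when only the 2 groups were fitted. Those fits called 4062, 4059 and 5186 of all genes, against 4034 in the main fit. In the second the 2-group fit called 1996 genes and 2 factors. In the third 1 factor passed with no filter, a fit that called 1811 genes. Leaving out 1 sample gave 2460 to 5108 genes and 0 to 2 factors in the first comparison, 2454 to 4142 genes and 2 to 5 factors in the second, and 676 (without 1a) to 3667 (without 2e) genes and 1 to 3 factors in the third. The lone sample left in MCLI12 was then assumed to vary like the other groups. The causes were not tested, beyond the smaller number of samples.

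Scaling moved the median log2 difference of all genes by -0.12 (median ratio), -0.07 (total) and -0.13 (quantile) in the first comparison, by -0.01, -0.16 and -0.01 in the second and by -0.11, 0.08 and -0.13 in the third. Of called genes, 64.2% were higher in the first as deposited, against 49.4%, 53.5% and 47.1% after these scalings, 53.1% in the second against 50.5%, 35.9% and 49.9%, and 63.6% in the third against 47.4%, 72.2% and 46.9%.

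Sign changes under median-ratio scaling were Foxa1 in the first comparison (-0.058) and Foxa1 (-0.067) and Foxa2 (-0.11) in the third. Total scaling turned Foxa1 (-0.018) in the first, Foxa1 (-0.13) and Nr5a2 (-0.14) in the second and Cebpa (0.034) in the third. Quantile normalization turned Foxa1 (-0.11) in the first, Nr5a2 (-0.011) in the second and Foxa1 (-0.17), Foxa2 (-0.078) and Cebpa (0.066) in the third. With 1 sample left out, differences ran from -0.012 to 0.098 for Foxa1 and from -0.018 to 0.33 for Cebpb in the first, from -0.24 to 0.27 for Foxa1 and from -0.15 to 0.21 for Nr5a2 in the second, and in the third from -0.22 to 0.29 for Foxa1, from -0.073 to 0.10 for Foxa2, from -0.16 to 0.040 for Cebpa, from -0.020 to 0.35 for Nr5a2 and from -0.30 to 1.66 for Onecut1.

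MCLI12 and MCLI8 share the numbers 2 and 3, and nothing in the labels says what a number marks. Across 10244 genes the deviations of same-numbered samples correlated at -0.19, which gives no ground to treat them as pairs, and what the numbers mark is unknown. A replicate block called 252 genes and 1 factor (Foxa3) and gave -0.026 for Foxa1 and -0.027 for Foxa2. Its differences for the 9 factors equal those of the fit without 1a, whose number has no MCLI12 sample. Whether calls were lost with the block through pairing or through the fewer samples was not tested. The block with crossed numbers called 16 genes and 0 factors, with -0.026 for Foxa1 and -0.027 for Foxa2.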
